A study of Mus musculus with 15 samples.

Results

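The genes described here are 40 members of the integrated stress response and the unfolded protein response, measured in mouse bone marrow derived macrophages. They were taken by symbol from a list of ATF4 targets and unfolded protein response genes and were kept where at least 3 libraries held 10 or more counts. All 40 were kept, of 25700 genes in the table: 22 in the integrated stress branch and 18 in the unfolded protein branch. The study sequenced RNA of macrophage cultures in 5 groups of 3 libraries and compared 2 cytokine polarizations with loading by heme-albumin, hemin bound to human serum albumin, which the labels use to model macrophages that have engulfed red cells. Marrow came from mice 8 to 10 weeks old, and M-CSF (10 ng/ml) was given to every culture over 7 days. Control cells had no further treatment. Heme-albumin was used at 2 doses, 200 µM and 400 µM, and the cytokines IL-4 (M2) and IFN-γ (M1) each at 10 ng/ml. The sources used here do not give the strain, the number of mice or the time under treatment. Nothing says that replicates came from separate animals, and p-values therefore cover only the spread among these samples, which may be technical. The treatment tags of the higher heme-albumin dose step up by 1 µM from replicate to replicate, whereas the titles give 400 µM for all 3.

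In the integrated stress response, kinases that sense different stresses phosphorylate the translation factor eIF2; general translation falls while the transcription factor ATF4 is made, and ATF4 raises genes of amino acid synthesis, amino acid transport and tRNA charging together with the factors CHOP (Ddit3) and ATF3. One of these kinases, HRI (Eif2ak1), is known as a heme-regulated kinase of red cell precursors. In the unfolded protein response, the sensors IRE1, ATF6 and PERK in the membrane of the endoplasmic reticulum (ER) answer to misfolded protein, and XBP1 and ATF6 raise chaperones, folding enzymes and the machinery that removes misfolded protein from the ER (ERAD). PERK feeds into ATF4, so the 2 branches share a sensor.

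The letters before the start sites were compared first. In RefSeq's promoter table (GRCm38.p6), 36 of the 40 members had a sequence, and the 250 bases before each start were searched on both strands for 4 motifs. The ER stress element, a CCAAT box followed after 9 bases by a CCACG box, was found at 8 of the 17 unfolded protein genes with a sequence and at 0 of the 19 integrated stress genes, against 37 of all 32851 promoters (0.113%). The 8 genes were Calr, Canx, Creld2, Dnajc3, Hsp90b1, Hspa5, Pdia6 and Syvn1. The C/EBP-ATF response element that ATF4 is known to bind, written TGATGNAA, was found at 6 integrated stress genes (Aars, Asns, Atf3, Chac1, Gars and Vldlr) and at 1 unfolded protein gene, Herpud1, against 1134 promoters (3.45%). The element TGACGTGG was found at 0 members of either branch (185 promoters, 0.563%), and the interferon-type GAS element TTCNNNGAA at 3 integrated stress genes, Aars, Shmt2 and Slc7a1 (2306 promoters, 7.02%). A member was counted where any of its promoters matched, whereas the background counts promoters. The 19 integrated stress genes had 23 promoters and the 17 unfolded protein genes had 17. A match is a description of the sequence only.

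The ER stress elements of 5 genes of chaperones, a disulfide isomerase and ER cofactors are shown because these genes differed between the IL-4 and IFN-γ groups in the results that follow. Each is read 5′ to 3′ in the direction of the motif, with the motif in capitals.
Hspa5 (chr2:34772020-34772048, plus strand): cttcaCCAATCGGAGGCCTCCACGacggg
Calr (chr8:84847070-84847098, plus strand): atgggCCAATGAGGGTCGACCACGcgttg
Pdia6 (chr12:17266486-17266514, plus strand): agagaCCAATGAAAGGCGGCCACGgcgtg
Dnajc3 (chr14:118937822-118937850, plus strand): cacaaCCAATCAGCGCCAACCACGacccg
Creld2 (chr15:88819515-88819543, minus strand): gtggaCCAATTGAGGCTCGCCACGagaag
The C/EBP-ATF elements of 3 members are shown in the same way, because Atf3 and Vldlr passed the test in opposite directions and Asns differed widely between replicates.
Atf3 (chr1:191183426-191183453, plus strand): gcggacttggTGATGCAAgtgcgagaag
Asns (chr6:7693215-7693242, minus strand): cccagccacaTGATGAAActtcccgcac
Vldlr (chr19:27216810-27216837, minus strand): ctaggagcgcTGATGCAActattgctgc
The whole 250-base windows are shown for Syvn1 and Herpud1. Syvn1 carries the ER stress element in the direction of the gene, and Herpud1 is the unfolded protein gene with the C/EBP-ATF element. Both windows are on the plus strand, and capitals mark the element found. No full ER stress element was found for Herpud1, but its window ends in ccaatggatggcagccac, a match cut off before its last base. Whether the next base completes it was not tested. The Herpud1 window also holds attgggccacg, a reversed CCAAT box close to a CCACG box, an arrangement that was not searched.
Syvn1 (chr19:6046326-6046575): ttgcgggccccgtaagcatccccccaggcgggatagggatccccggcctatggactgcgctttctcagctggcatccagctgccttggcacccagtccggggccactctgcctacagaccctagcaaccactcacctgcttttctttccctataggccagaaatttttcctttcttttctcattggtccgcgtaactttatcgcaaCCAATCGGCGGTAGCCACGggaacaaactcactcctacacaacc
Herpud1 (chr8:94386179-94386428): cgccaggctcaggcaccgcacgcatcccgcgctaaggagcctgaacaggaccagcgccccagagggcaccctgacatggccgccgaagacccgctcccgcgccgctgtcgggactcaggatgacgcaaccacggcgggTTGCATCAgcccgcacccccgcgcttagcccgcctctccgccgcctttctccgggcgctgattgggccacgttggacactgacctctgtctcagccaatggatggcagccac

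Libraries held 8427352 to 28587416 counts, and levels are given as CPM, counts scaled to a common library total with TMM factors. All 8 macrophage markers (Adgre1, Csf1r, Cd68 and others) were detected in every group. Their summed level had a median of 34220 CPM in controls (33080 to 38770), 54990 CPM at 200 µM (46730 to 55480), 46870 CPM at 400 µM (41900 to 52010), 16550 CPM with IL-4 (14280 to 20380) and 13010 CPM with IFN-γ (12870 to 26420). The sum hides the single genes. At 400 µM, 7 of the 8 macrophage markers had a negative log2 difference from control (median -0.34). At 200 µM, 5 of the 8 did (median -0.28). The sum was above the controls at both doses, so it did not follow most of its genes there. IL-4 gave 6 negative differences (median -0.51), whereas IFN-γ gave 4 negative and 4 positive (median -0.05). Neutrophil markers summed to at most 55.3 CPM and T and NK cell markers to at most 2.07 CPM, and erythroid markers reached 0.323 CPM. Dendritic cell markers summed to 26.99 to 59.8 CPM with IFN-γ and to 0.384 to 0.967 CPM in controls, mostly as Clec9a, and megakaryocyte and platelet markers summed to 362 to 680 CPM at 400 µM heme-albumin, 13.4 to 35.1 CPM with IFN-γ and 130 to 246 CPM in controls. Their part in the results was not tested, and in bulk RNA fewer cells of a type and less RNA per cell cannot be told apart. Replicate 2 at 400 µM and IFN-γ replicate 3 stood apart from their groups: over all genes, their chi-square per degree of freedom against the other replicates was 49.0 to 62.4 and 130 to 135, where the remaining pairs of the same groups gave 10.8 and 44.7. Replicate 2 at 200 µM lay apart less far, at 22.7 and 36.0 against 8.52.

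**Figure D1:**
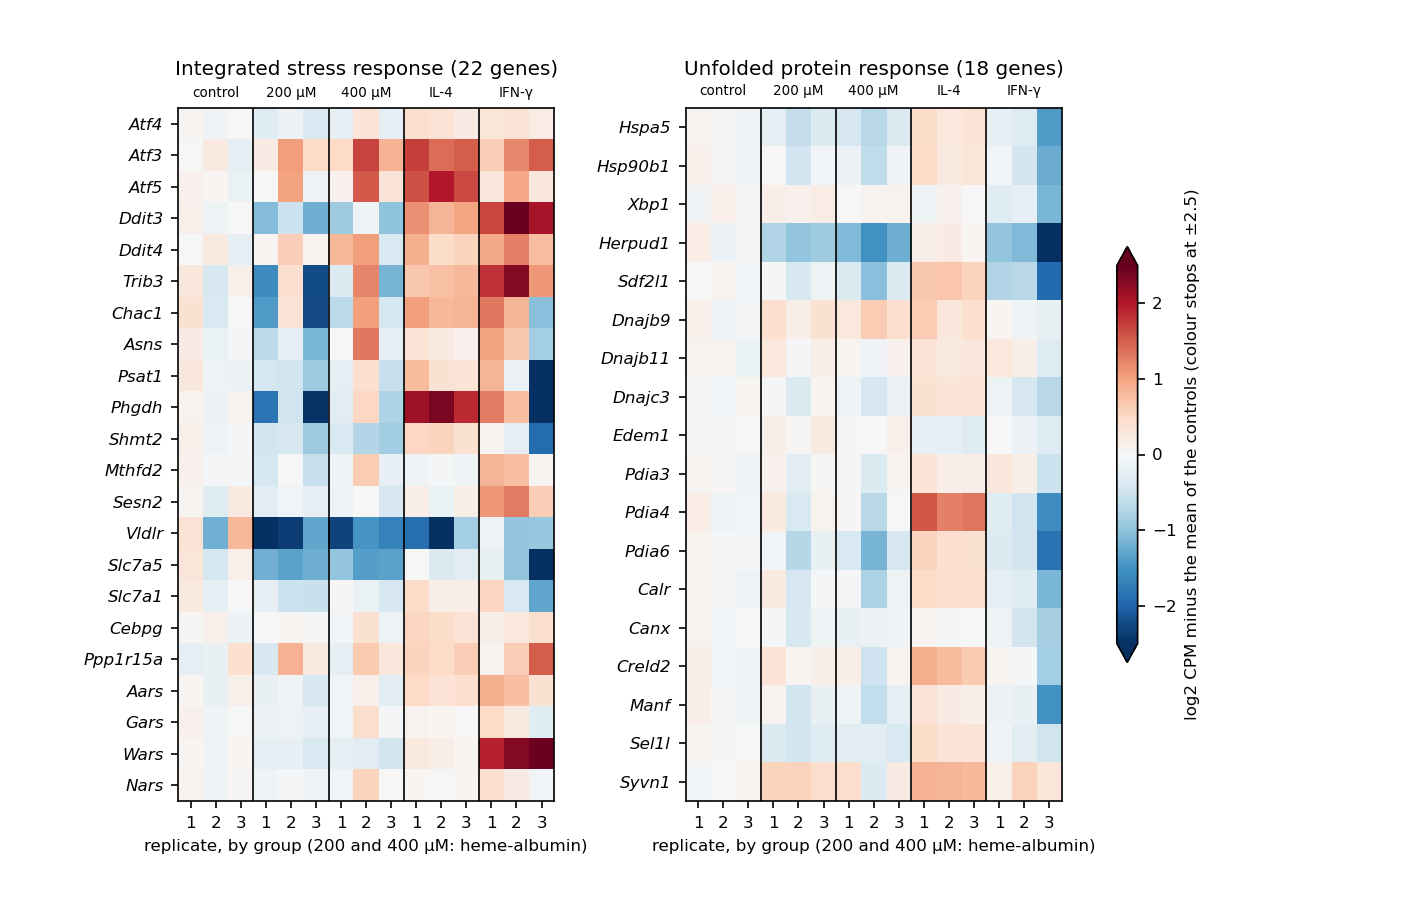
Level of each of the 40 genes in each of the 15 libraries, as log2 CPM minus the mean of the 3 controls; columns are replicates 1 to 3 of each group, rows are genes, and colour stops at ±2.5. The IL-4 columns are red across most unfolded protein genes, and IFN-γ replicate 3 is the bluest column of that panel.

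The members called in each group were counted by branch. A gene was called where its adjusted p (edgeR's quasi-likelihood F, Benjamini-Hochberg over all 11883 genes tested) was under 0.05, and all 40 members were tested. With IL-4, 6 integrated stress genes rose and 1 fell, and 5 unfolded protein genes rose and 0 fell, where 26.8% of all genes tested were called, 14.9% higher and 12% lower. IFN-γ raised 7 integrated stress genes and lowered 0, and raised 0 unfolded protein genes and lowered 6, where 43.7% of all genes were called, 24.1% higher and 19.5% lower. Heme-albumin at 400 µM raised 1 and lowered 1 integrated stress gene and raised 1 and lowered 2 unfolded protein genes, where 25.4% of all genes were called, 14.7% higher and 10.8% lower. At 200 µM, 0 integrated stress genes rose and 2 fell, and 1 unfolded protein gene rose and 2 fell, where 23.4% of all genes were called, 14% higher and 9.48% lower. So 5 of 40 members (12.5%) were called at each heme-albumin dose. Called either way with IL-4 were 31.8% of the integrated stress and 27.8% of the unfolded protein genes, near the 26.8% of all genes. The shares with IFN-γ were 31.8% and 33.3%, beside 43.7% of all genes. The 4 comparisons share their 3 controls.

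The counts of 0 were not all 0 by other measures. At an unadjusted p under 0.05, edgeR's test had 1 unfolded protein gene lower with IL-4, 1 higher with IFN-γ, 1 integrated stress gene lower with IFN-γ and 0 higher at 200 µM. DESeq2 called 1 unfolded protein gene lower with IL-4 (Edem1), 0 higher with IFN-γ, 1 integrated stress gene lower with IFN-γ (Slc7a5) and 0 higher at 200 µM. Single libraries moved several counts, and they moved the share of all genes called as well. Without 1 control that share was 17.9% to 18.4% at 400 µM, 14.8% to 17.5% at 200 µM and 19.1% to 20.5% with IL-4. With IFN-γ it was 33.3% to 35.3% without 1 control, 46.6% without IFN-γ replicate 1 and 37.9% without IFN-γ replicate 3. The unfolded protein count with IFN-γ was 11 without IFN-γ replicate 1, 3 without replicate 2 and 2 without replicate 3 or without control replicates 1 or 3. With IL-4 it was 2 without control replicates 2 or 3 or IL-4 replicate 1, and the integrated stress count was 3 without control replicates 1 or 3 or IL-4 replicate 1 and 4 without IL-4 replicate 2. At 400 µM the integrated stress count was 0 without control replicates 1 or 3 and 1 without 400 µM replicates 1 or 2, and the unfolded protein count was 1 without control replicates 2 or 3 or 400 µM replicate 2. At 200 µM they were 0 without 200 µM replicate 1 and 1 without control replicates 1 or 3 or 200 µM replicates 2 or 3, and 0 without control replicate 1 or 200 µM replicate 2 and 1 without control replicates 2 or 3 or 200 µM replicate 1.

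The median log2 fold change over the 22 integrated stress genes was 0.03 at 400 µM, -0.30 at 200 µM, 0.44 with IL-4 and 0.52 with IFN-γ. Over the 18 unfolded protein genes it was -0.21, -0.08, 0.35 and -0.47. Medians over all genes tested lay between 0.00 and 0.05.

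**Figure D2:**
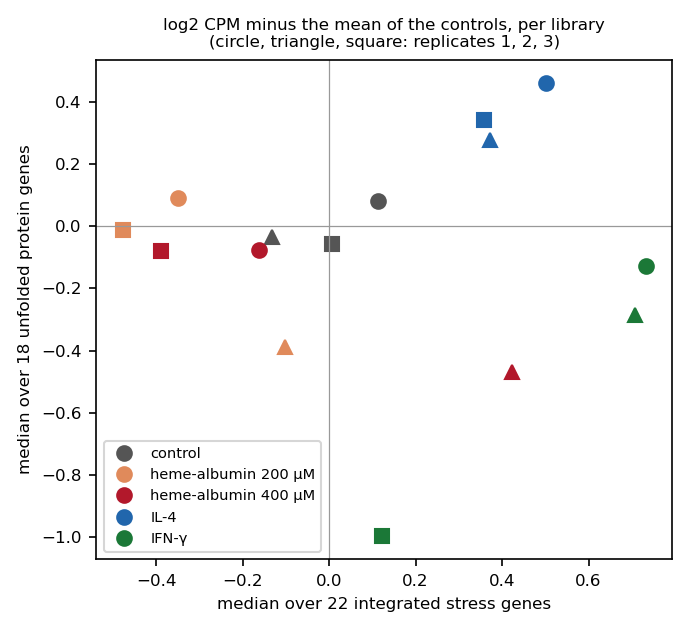
Median over the 22 integrated stress genes (horizontal) and the 18 unfolded protein genes (vertical) of log2 CPM minus the mean of the controls, 1 point per library. The 3 IL-4 libraries lie above 0 on both axes, at 0.36 to 0.50 and 0.28 to 0.46, and the 3 IFN-γ libraries lie right of 0 and below it, with replicate 3 lowest.

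Per kilobase of exon, the ER chaperones were the most abundant members in controls. Calr, a lectin chaperone of the ER lumen, stood at 433 CPM per kb, ahead of the HSP70 chaperone BiP (Hspa5) at 258, the HSP90 chaperone GRP94 (Hsp90b1) at 249 and the disulfide isomerase Pdia3 at 248. Of the integrated stress genes, Atf4 stood highest at 103 CPM per kb and Atf3 at 62.9, while Trib3 (3.98), Chac1 (1.74), Ddit4 (1.25) and Vldlr (0.284) were lowest.

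**Figure D3:**
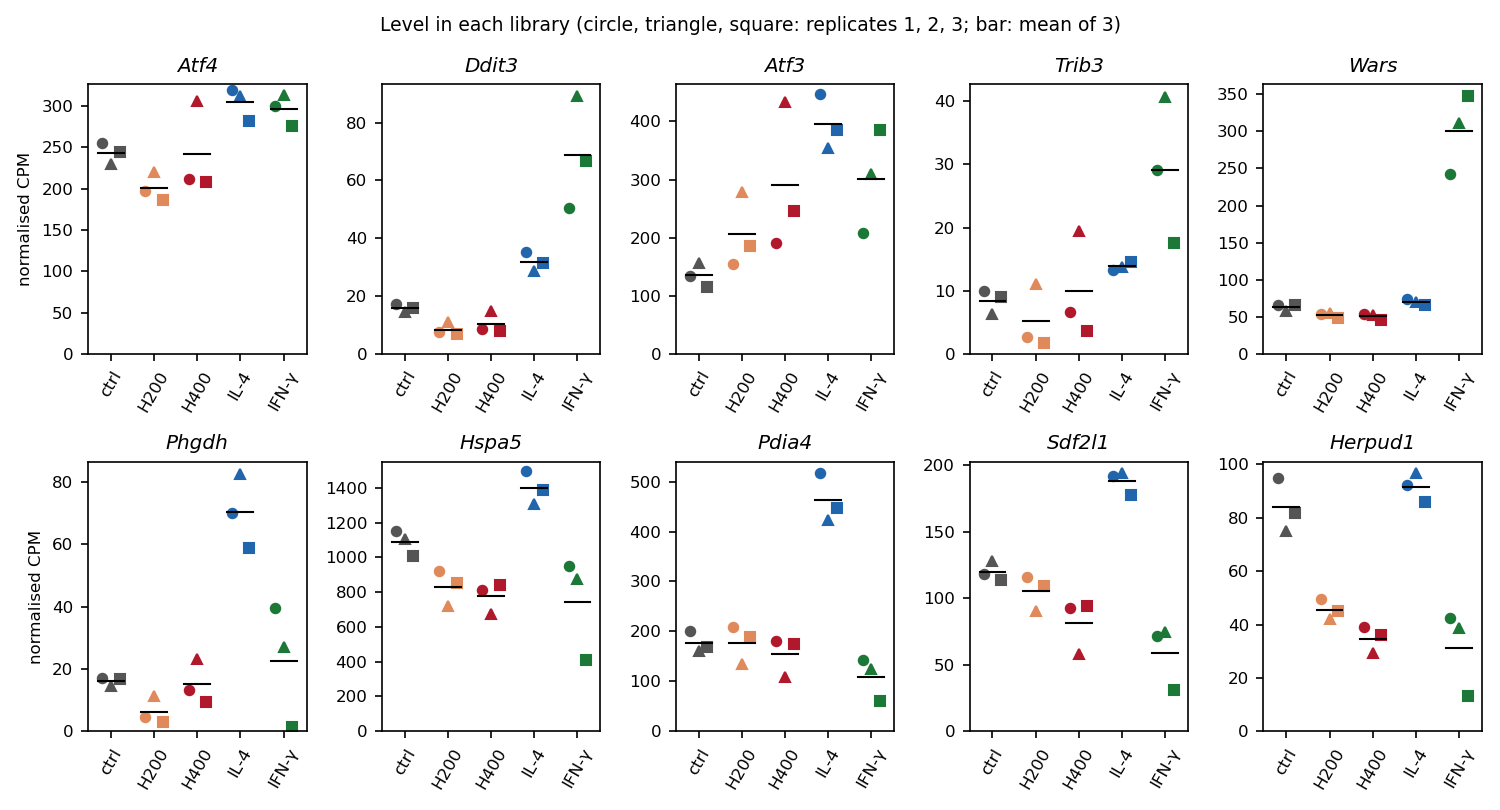
Level in normalised CPM of 10 members in each library, with the 5 groups along the horizontal axis (ctrl, control; H200 and H400, heme-albumin at 200 and 400 µM), replicates as symbols and the mean of 3 as a bar. Ddit3 lies under the controls or beside them with heme-albumin and above them with either cytokine, and Pdia4 and Phgdh are highest with IL-4.

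Among the transcription factors of the integrated stress branch, Atf4 itself was not called in any group. Its level was 255, 229 and 245 CPM in control replicates 1 to 3, 197, 220 and 186 CPM at 200 µM, 212, 307 and 209 CPM at 400 µM, 319, 312 and 282 CPM with IL-4 and 300, 314 and 276 CPM with IFN-γ. Every cytokine library was above every control and every 200 µM library below, with log2 differences of 0.33 ± 0.14 (SE; adjusted p = 0.0947), 0.29 ± 0.14 (0.101) and -0.27 ± 0.14 (0.164). Atf4 was called under 3 of 15 alternatives with IL-4 (range of adjusted p 0.00905 to 0.291), 2 with IFN-γ (0.0103 to 0.349) and 3 at 200 µM (0.0227 to 0.354), among them leaving out 400 µM replicate 2 with IFN-γ replicate 3 and leaving out replicate 2 of both heme-albumin groups. At 400 µM the difference was 0.00 ± 0.14 (adjusted p = 0.988), with replicate 2 above the controls and the other 2 below. ATF4 is known to be set mainly by translation, which RNA counts do not measure.

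Atf3, a stress-induced repressor of inflammatory genes, rose with both cytokines and at 400 µM. It stood at 134, 157 and 116 CPM in controls, 155, 278 and 186 CPM at 200 µM, 191, 433 and 246 CPM at 400 µM, 447, 354 and 385 CPM with IL-4 and 207, 310 and 385 CPM with IFN-γ. The groups did not overlap with the controls except at 200 µM, where replicate 1 lay within them. Log2 fold changes were 1.54 ± 0.30 with IL-4 (adjusted p = 0.00193) and 1.15 ± 0.30 with IFN-γ (adjusted p = 0.00788), both called under all 15 alternatives, and 1.10 ± 0.30 at 400 µM (adjusted p = 0.0163). The call at 400 µM was lost without replicate 2 of that group (log2 0.69, adjusted p = 0.0934), without control replicate 1 (0.0528), without control replicate 3 (0.0707) and without replicate 2 of both heme-albumin groups (0.0532), in a range of 0.00224 to 0.0934 over its alternatives.

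Ddit3, which encodes the pro-death factor CHOP, rose with the cytokines and fell at 200 µM. It stood at 17.3, 14.6 and 16.02 CPM in controls, 7.44, 10.99 and 6.79 CPM at 200 µM, 8.54, 14.8 and 7.94 CPM at 400 µM, 35.4, 28.8 and 31.6 CPM with IL-4 and 50.6, 89.1 and 66.6 CPM with IFN-γ. All cytokine libraries were above all controls and all 200 µM libraries below, while 400 µM replicate 2 lay within the controls. It rose 4.305-fold with IFN-γ (log2 2.11 ± 0.25, adjusted p = 2.04e-05) and 2.00-fold with IL-4 (log2 1.00 ± 0.24, adjusted p = 0.00789), both under all 15 alternatives, and fell by 0.92 ± 0.26 on the log2 scale at 200 µM (adjusted p = 0.02). That fall was lost without control replicate 1 (adjusted p = 0.067), without 200 µM replicate 1 (0.073) and without 200 µM replicate 3 (0.0753), in a range of 0.00293 to 0.0753. At 400 µM the log2 difference was -0.63 ± 0.26 (adjusted p = 0.0899); without replicate 2 it was -0.96 (adjusted p = 0.0177, range over alternatives 0.011 to 0.274). Exons of Ddit3 overlap those of a second entry of the same symbol and of Mars and Gm4189 on the other strand, and no source used here gives the strand setting of the counting, which leaves its counts uncertain to that extent.

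Direct tests between treatments gave the same order for Ddit3. It was lower at 400 µM than with IL-4 (log2 -1.63 ± 0.25, adjusted p = 0.000217) and than with IFN-γ (-2.74 ± 0.26, adjusted p = 1.99e-06), and lower with IL-4 than with IFN-γ (-1.11 ± 0.24, adjusted p = 0.00154), each under all alternatives.

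Atf5, a factor of mitochondrial and amino acid stress, rose with IL-4. Its level was 44.2, 42.3 and 36.4 CPM in controls and 124, 164 and 128 CPM with IL-4, with no overlap, a rise of 3.38-fold (log2 1.76 ± 0.37, adjusted p = 0.00297). With IFN-γ it stood at 49.4, 79.7 and 49.9 CPM, at 200 µM at 40.4, 82.5 and 37.6 CPM and at 400 µM at 44.3, 118 and 51.3 CPM. Replicate 2 was the highest library in each of the 4 treated groups. At 400 µM the log2 difference of 0.79 ± 0.36 was not called (adjusted p = 0.13), and with the replicate number as a block it was 0.66 and called (adjusted p = 0.0423, range over alternatives 0.0423 to 0.682). Exons of Atf5 overlap those of Nup62 and Il4i1 on the other strand over 164 bases. The strand setting of the counting is not given, so the Atf5 counts are uncertain to that extent. The part of such reads in the rise with IL-4 was not tested. Cebpg, which encodes a dimer partner of ATF4, rose 1.37-fold with IL-4 (log2 0.45 ± 0.13, adjusted p = 0.0172); the call was lost without control replicate 1 (0.0583), control replicate 3 (0.0928) or IL-4 replicate 1 (0.0644), in a range of 0.00113 to 0.0928.

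Of the enzymes of serine and one-carbon metabolism and asparagine synthesis, Phgdh, the first enzyme of serine synthesis from glycolysis, rose with IL-4. It stood at 17.0, 14.6 and 16.8 CPM in controls, 4.44, 11.3 and 2.87 CPM at 200 µM, 13.1, 23.1 and 9.36 CPM at 400 µM, 70.1, 82.4 and 58.8 CPM with IL-4 and 39.7, 27.1 and 1.24 CPM with IFN-γ. The IL-4 libraries were above all others, and the IFN-γ libraries split, 2 above the controls and replicate 3 far below. The rise with IL-4 was 4.37-fold (log2 2.13 ± 0.72, adjusted p = 0.0438), but it was lost without any 1 of the 6 libraries compared (adjusted p = 0.0753 to 0.131, range over all alternatives 4.92e-06 to 0.131), while the log2 value stayed between 2.00 and 2.22. With IFN-γ the log2 difference was 0.50 ± 0.71 (adjusted p = 0.592), and without IFN-γ replicate 3 it was 1.05 (adjusted p = 0.0462).

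Psat1, the next enzyme of serine synthesis, Asns, which makes asparagine, Shmt2 and Mthfd2, mitochondrial enzymes of one-carbon metabolism, were called in no comparison with control. Shmt2 stood at 81.1, 70.6 and 72.5 CPM in controls, between 39.9 and 57.2 CPM in the 6 heme-albumin libraries, and at 106.5, 109 and 97.4 CPM with IL-4. All its heme-albumin libraries were below and all its IL-4 libraries above the controls, with log2 differences of -0.57 ± 0.34 at 200 µM, -0.65 ± 0.34 at 400 µM and 0.48 ± 0.34 with IL-4 (adjusted p = 0.243, 0.181 and 0.323). The replicates of Asns and Psat1 lay far apart in 400 µM heme-albumin or IFN-γ. Asns stood at 55.0, 137 and 48.0 CPM at 400 µM and at 111, 87.3 and 30.3 CPM with IFN-γ, where controls stood at 63.7, 48.7 and 53.6 CPM. Psat1 stood at 181, 91.5 and 9.502 CPM with IFN-γ against 122, 91.9 and 91.7 CPM in controls. Without 400 µM replicate 2 and IFN-γ replicate 3, the 400 µM group was below the IFN-γ group for both genes, by log2 -0.94 for Asns (adjusted p = 0.00443) and -0.82 for Psat1 (adjusted p = 0.0331), where the differences with all libraries were 0.06 (adjusted p = 0.922) and 0.02 (adjusted p = 0.983). For Mthfd2 with IFN-γ, the log2 difference was 0.59 ± 0.23 (adjusted p = 0.0515), and it was called under 5 of 15 alternatives, among them DESeq2 (0.0468), the replicate block (0.0267) and without IFN-γ replicate 3 (0.00838), in a range of 0.000386 to 0.156.

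Trib3, a pseudokinase that restrains ATF4 and CHOP, Sesn2, which restrains mTORC1 when leucine is short, and Ddit4 (REDD1), which restrains mTORC1 under energy stress, rose with IFN-γ. Trib3 stood at 10.0, 6.29 and 9.03 CPM in controls, 2.72, 11.2 and 1.70 CPM at 200 µM, 6.57, 19.4 and 3.70 CPM at 400 µM, 13.4, 13.8 and 14.6 CPM with IL-4 and 29.2, 40.7 and 17.6 CPM with IFN-γ. The cytokine libraries were above all controls, and in both heme-albumin groups replicate 2 was above the controls and replicate 3 below. It rose 3.47-fold with IFN-γ (log2 1.79 ± 0.60, adjusted p = 0.0265); the call was lost without any 1 control (0.0578 to 0.0964) or without IFN-γ replicate 2 (0.0871), in a range of 0.000734 to 0.0964. Without replicate 2 of both heme-albumin groups, Trib3 fell at 200 µM by 1.89 on the log2 scale (adjusted p = 0.00933), where the difference with all libraries was -0.69 ± 0.63 (adjusted p = 0.46).

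Sesn2 stood at 30.5, 23.8 and 34.3 CPM in controls and at 62.2, 71.9 and 44.7 CPM with IFN-γ, with no overlap, and lay between 22.3 and 32.7 CPM in all libraries of the other 3 groups. Its rise was 2.03-fold (log2 1.02 ± 0.18, adjusted p = 0.000546), called under all 15 alternatives, and it was lower at 400 µM than with IFN-γ (log2 -1.19 ± 0.18, adjusted p = 0.000145). Ddit4 stood at 2.18, 2.60 and 1.83 CPM in controls and at 4.28, 5.34 and 3.79 CPM with IFN-γ, with no overlap (log2 1.01 ± 0.32, adjusted p = 0.0201). The Ddit4 call was lost without control replicate 1 (0.062), control replicate 3 (0.0703) or IFN-γ replicate 2 (0.07), in a range of 0.00845 to 0.0703, and at 400 µM its log2 difference of 0.57 ± 0.33 (adjusted p = 0.226) was called without replicate 3 of that group (log2 0.93, adjusted p = 0.0278). Chac1, which degrades glutathione, and Ppp1r15a (GADD34), which brings a phosphatase to eIF2, were not called in any group; Ppp1r15a with IFN-γ differed by log2 0.84 ± 0.36 (adjusted p = 0.0778) and was called with the replicate block (0.0496) and without IFN-γ replicate 1 (0.02).

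Among the tRNA synthetases, Wars carried the largest rise of any member in a comparison with control. This tryptophanyl-tRNA synthetase, which is known as an interferon-induced gene, stood at 65.7, 58.6 and 65.5 CPM in controls, 53.7, 55.1 and 48.4 CPM at 200 µM, 53.9, 52.3 and 45.8 CPM at 400 µM, 74.4, 70.7 and 65.7 CPM with IL-4 and 242, 312 and 348 CPM with IFN-γ. All IFN-γ libraries were above all others, and all heme-albumin libraries were below all controls. The rise was 4.75-fold (log2 2.25 ± 0.13, adjusted p = 2.14e-08), called under all 15 alternatives, while log2 differences of -0.32 ± 0.12 at 400 µM and -0.27 ± 0.12 at 200 µM were not called (adjusted p = 0.0744 and 0.132). Aars, the alanyl-tRNA synthetase, rose 1.605-fold with IFN-γ (log2 0.68 ± 0.14, adjusted p = 0.00202), under all alternatives, and 1.34-fold with IL-4 (log2 0.42 ± 0.14, adjusted p = 0.0447), a call lost without any 1 of the 6 libraries (0.0702 to 0.213; range over all alternatives 0.0059 to 0.213). Part of the Aars exons is shared with Exosc6, so its counts are uncertain. Gars and Nars were not called in any group, with log2 differences of -0.16 to 0.17 and -0.08 to 0.20.

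The 2 amino acid transporters among the members were not called in any group. Slc7a5 (LAT1), which carries large neutral amino acids, stood at 54.6, 32.7 and 47.9 CPM in controls, 17.0 to 22.3 CPM in the 6 heme-albumin libraries, 34.3 to 44.6 CPM with IL-4 and 38.8, 22.1 and 4.75 CPM with IFN-γ. Every heme-albumin library was below every control, yet the log2 differences of -1.28 ± 0.47 at 200 µM and -1.25 ± 0.47 at 400 µM were not called by edgeR (adjusted p = 0.0634 and 0.067); DESeq2 called both (0.0204 and 0.0253), the replicate block called the first (0.05 as rounded), and with only the 6 libraries of each comparison they were called too (0.000528 and 0.00312). Slc7a1 (CAT1), a carrier of arginine and lysine, was not called in any group, with log2 differences of -0.44 to 0.27. With IFN-γ both transporters were called only when replicate 1 was left out or, for Slc7a5, also under DESeq2 (0.0462) and the replicate block (0.0459) (Slc7a5 log2 -1.71, adjusted p = 0.0061; Slc7a1 -0.78, 0.0175, without replicate 1).

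Vldlr, a lipoprotein receptor known as an ATF4 target, fell in 3 groups at very low counts. It stood at 3.14, 1.03 and 4.41 CPM in controls (49, 17 and 41 counts), 0.358, 0.423 and 0.955 CPM at 200 µM (5, 5 and 9 counts), 0.438, 0.839 and 0.708 CPM at 400 µM (4, 7 and 9 counts), 0.612, 0.371 and 1.32 CPM with IL-4 and 2.29, 1.20 and 1.24 CPM with IFN-γ. All heme-albumin libraries were below all controls, whereas IL-4 replicate 3 lay above control replicate 2. It fell by 2.31 ± 0.62 on the log2 scale at 200 µM (adjusted p = 0.0155), by 2.06 ± 0.62 at 400 µM (0.0251) and by 1.79 ± 0.55 with IL-4 (0.0263). The 200 µM call was lost without control replicate 3, 200 µM replicate 1 or 200 µM replicate 2 (0.0611 to 0.0705, range over alternatives 0.00258 to 0.0737). The 400 µM call was lost without control replicate 1, control replicate 3 or any 1 of the 400 µM libraries (0.0529 to 0.0965, range 0.00758 to 0.0965), and the IL-4 call without control replicates 1 or 3 or IL-4 replicates 1 or 2 (0.0815 to 0.113, range 0.00681 to 0.113). A filter of 5 CPM removed the gene.

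**Figure D4:**
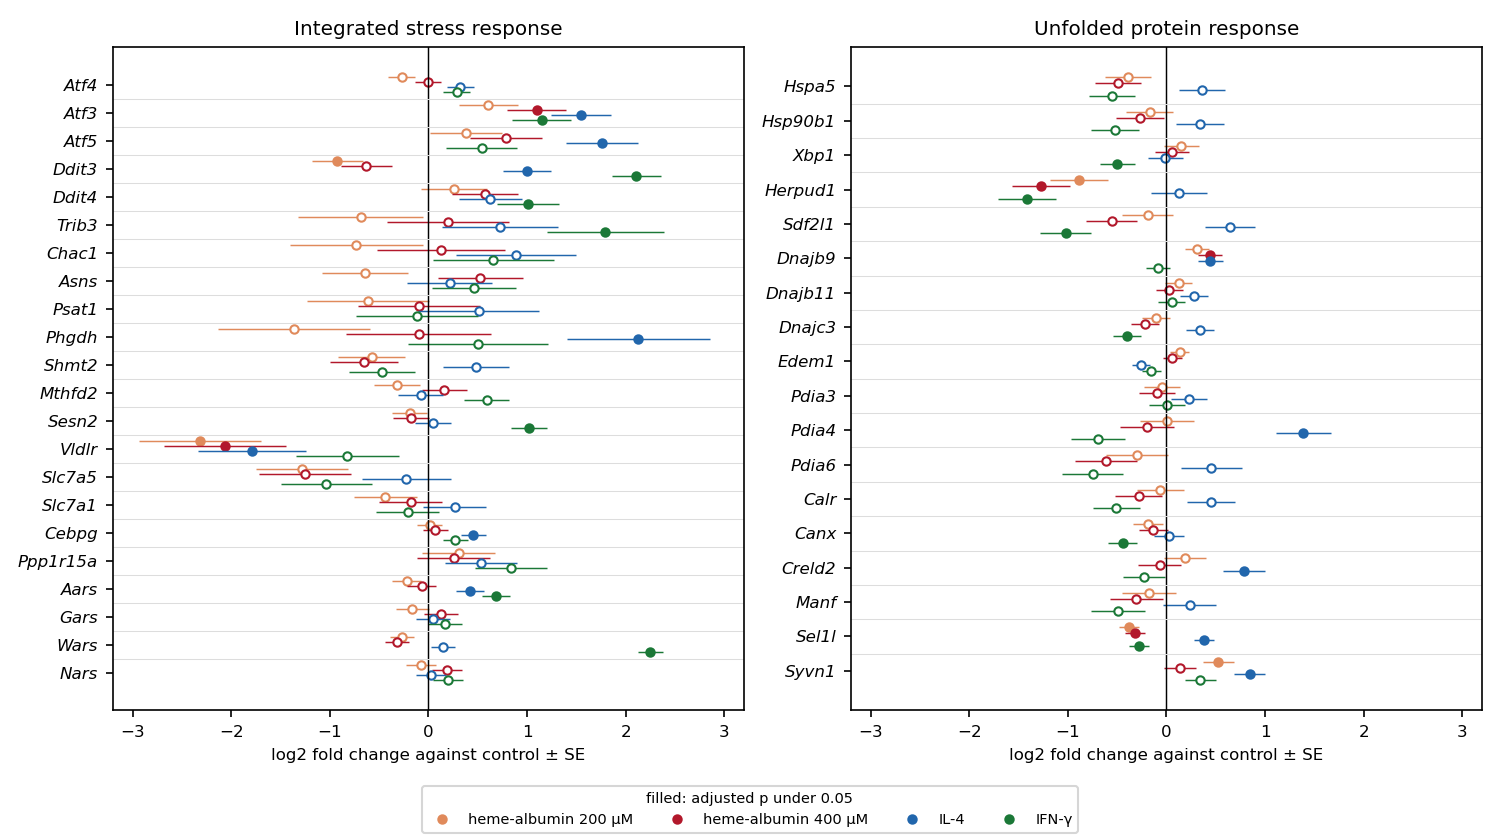
Log2 fold change against control with its standard error for the 22 integrated stress genes (left) and the 18 unfolded protein genes (right) in each of the 4 treated groups, filled where the adjusted p was under 0.05. On the right, the IL-4 points lie right of 0 for 16 of 18 genes and the IFN-γ points left of 0 for 15 of 18.

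In the unfolded protein branch, the chaperones are described first. Hspa5, whose product BiP is the main ER chaperone, stood at 1153, 1104 and 1010 CPM in controls, 923, 717 and 854 CPM at 200 µM, 812, 674 and 843 CPM at 400 µM, 1495, 1309 and 1386 CPM with IL-4 and 949, 874 and 408 CPM with IFN-γ. The IL-4 libraries were above all controls, and all libraries of the other 3 groups were below. Against control no difference was called: log2 0.36 ± 0.23 with IL-4 (adjusted p = 0.288), -0.55 ± 0.23 with IFN-γ (0.0723), -0.49 ± 0.23 at 400 µM (0.145) and -0.39 ± 0.23 at 200 µM (0.249). With IFN-γ the difference was called without IFN-γ replicate 1 (log2 -0.77, adjusted p = 0.0219), by DESeq2 (0.0389) and with upper-quartile scaling (0.0395), in a range of 0.0219 to 0.19. In the direct test, Hspa5 was higher with IL-4 than with IFN-γ (log2 0.91 ± 0.24, adjusted p = 0.00564) and lower at 400 µM than with IL-4 (-0.85 ± 0.24, adjusted p = 0.0112).

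Between the cytokines, 15 of the 18 unfolded protein genes were higher with IL-4 and 0 were lower by edgeR's test, where 50.6% of all genes tested were called, 24.3% higher and 26.3% lower. At an unadjusted p under 0.05, and by DESeq2, 0 of the 18 were lower as well. The 15 took in chaperones, disulfide isomerases and ERAD genes alike; Dnajb11, Edem1 and Pdia3 were not called. The median log2 difference over the 18 was 0.73, against -0.01 over all genes. Of the genes called under all 15 alternatives, the log2 differences were Pdia4 2.08 ± 0.28 (adjusted p = 4.26e-05), Sdf2l1 1.67 ± 0.26, Herpud1 1.54 ± 0.30, Pdia6 1.20 ± 0.32, Creld2 1.01 ± 0.21, Calr 0.96 ± 0.24, Dnajc3 0.74 ± 0.14, Sel1l 0.65 ± 0.10 and Dnajb9 0.53 ± 0.12. IFN-γ replicate 3 was the lowest of its group for 17 of the 18 genes. Without it 12 were called, and Canx (adjusted p = 0.0559), Manf (0.0579) and Xbp1 (0.0547) were lost. These 3 were lost in other settings too. Canx was called under 11 of 15 alternatives, and Manf and Xbp1 under 10 each, with adjusted p up to 0.091, 0.134 and 0.157. Syvn1 was lost without IFN-γ replicate 1 (0.0598), and Hspa5 (0.0572) and Hsp90b1 (0.0549) with only the 6 libraries compared. Of the genes called under all alternatives, the ER stress element was found at Pdia6, Creld2, Calr and Dnajc3. In the 250 bases searched, it was not found at Pdia4, Sdf2l1, Herpud1 (whose window ends within a partial match), Sel1l or Dnajb9. Of the genes that lost a call, Canx, Syvn1, Hspa5 and Hsp90b1 carried it, Xbp1 had no match and Manf had no sequence. A link between element and level was not tested.

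Among the disulfide isomerases, Pdia4 (ERp72) stood out with IL-4. It was at 200, 162 and 169 CPM in controls, 208, 136 and 188 CPM at 200 µM, 180, 109 and 174 CPM at 400 µM, 517, 423 and 448 CPM with IL-4 and 143, 125 and 59.8 CPM with IFN-γ. All IL-4 libraries were above all others and all IFN-γ libraries below all controls. The rise with IL-4 was 2.62-fold (log2 1.39 ± 0.28, adjusted p = 0.00223), called under all 15 alternatives; with IFN-γ the log2 difference was -0.69 ± 0.28 (adjusted p = 0.0561), called under 6 of 15 alternatives, among them DESeq2 (0.0273), the replicate block (0.0336) and without IFN-γ replicate 1 (0.0202), in a range of 0.0202 to 0.156. Pdia3 and Pdia6 were not called against control in any group, although all IL-4 libraries were above all controls for both (log2 0.23 ± 0.18 and 0.45 ± 0.31). For Pdia6, all libraries of the other 3 groups were below all controls, and with IFN-γ the log2 difference was -0.75 ± 0.31 (adjusted p = 0.0676), called under 5 of 15 alternatives in a range of 0.0268 to 0.152.

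The ERAD genes split by member. Syvn1, the ubiquitin ligase HRD1, and Sel1l, its partner in the same complex, both rose with IL-4, by log2 0.85 ± 0.16 (1.80-fold, adjusted p = 0.00135, under all alternatives) and 0.38 ± 0.10 (1.30-fold, adjusted p = 0.0135). With heme-albumin they parted. Syvn1 stood at 57.8, 60.6 and 64.1 CPM in controls, 89.7, 90.9 and 82.2 CPM at 200 µM and 82.4, 48.0 and 70.4 CPM at 400 µM, so that the 200 µM libraries were above the controls and 400 µM replicate 2 below. It rose at 200 µM (log2 0.53 ± 0.16, adjusted p = 0.0276) and not at 400 µM (0.14 ± 0.16, adjusted p = 0.557). Sel1l fell by 0.38 ± 0.10 at 200 µM (adjusted p = 0.0165), by 0.32 ± 0.10 at 400 µM (0.0354) and by 0.27 ± 0.10 with IFN-γ (0.0424). Its 6 heme-albumin libraries lay between 154 and 176 CPM, below the controls at 204 to 219 CPM.

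The calls of these smaller ERAD changes were lost in several fits without 1 library, while the log2 values moved little. Over all alternatives the log2 value was 0.47 to 0.57 for Syvn1 at 200 µM and -0.36 to -0.28 for Sel1l at 400 µM. Fewer of all genes were called in such fits too. At 200 µM the share was 23.4% with all libraries, 14.8% without control replicate 1 and 13.9% without 200 µM replicate 2. The Syvn1 rise at 200 µM was lost without any 1 control or without 200 µM replicates 1 or 2 (0.0616 to 0.106, range over alternatives 0.00112 to 0.106). The Sel1l fall was lost at 400 µM without any 1 of the 6 libraries (0.0512 to 0.112), at 200 µM without control replicate 1 (0.0536) or 200 µM replicate 2 (0.0777), and with IFN-γ without any 1 control or IFN-γ replicates 2 or 3 (0.0568 to 0.165). The Sel1l rise with IL-4 was lost without control replicates 2 or 3 or IL-4 replicate 1 (0.0503 to 0.0758). Edem1, which extracts misfolded glycoproteins for ERAD, went the other way from the rest with IL-4: 328, 320 and 303 CPM against 373, 386 and 378 CPM in controls, with no overlap, a log2 difference of -0.26 ± 0.10 that was not called (adjusted p = 0.06; DESeq2 0.00965).

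Herpud1, a membrane protein that serves ERAD, fell at both heme-albumin doses and with IFN-γ, as Sel1l did, by larger amounts. It stood at 94.8, 75.1 and 81.8 CPM in controls, 49.5, 42.0 and 45.0 CPM at 200 µM, 38.9, 29.3 and 35.9 CPM at 400 µM, 92.2, 96.8 and 85.9 CPM with IL-4 and 42.3, 38.7 and 13.1 CPM with IFN-γ. All 9 libraries of the 3 lowered groups were below all controls, and the IL-4 libraries overlapped with the controls. It fell by 1.27 ± 0.30 on the log2 scale at 400 µM (adjusted p = 0.00682) and by 1.41 ± 0.30 with IFN-γ (0.00191), both under all 15 alternatives, and by 0.88 ± 0.29 at 200 µM (0.0434), where leaving out any 1 of the 6 libraries ended the call (0.059 to 0.138, range over alternatives 2.81e-05 to 0.138). With IL-4 the log2 difference was 0.13 ± 0.29 (adjusted p = 0.788), and Herpud1 was lower at 400 µM than with IL-4 (log2 -1.40 ± 0.30, adjusted p = 0.00212).

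Of the ER cofactors, Sdf2l1, a partner of BiP in the ER lumen, fell with IFN-γ. It stood at 118, 128 and 114 CPM in controls, 116, 90.3 and 110 CPM at 200 µM, 92.8, 57.8 and 94.4 CPM at 400 µM, 192, 194 and 177 CPM with IL-4 and 71.5, 74.4 and 31.3 CPM with IFN-γ. The IL-4 libraries were above and the 400 µM and IFN-γ libraries below all controls. It fell by 1.02 ± 0.26 with IFN-γ (adjusted p = 0.00683, under all 15 alternatives), and differed by 0.65 ± 0.26 with IL-4 (adjusted p = 0.0814) and -0.55 ± 0.26 at 400 µM (adjusted p = 0.136). Creld2 rose 1.73-fold with IL-4 (log2 0.79 ± 0.21, adjusted p = 0.0147), lost without control replicates 2 or 3 or IL-4 replicate 1 (0.0545 to 0.0605, range over alternatives 6.32e-05 to 0.0605). The BiP co-chaperone Dnajb9 (ERdj4), a known target of XBP1, rose 1.36-fold at 400 µM (log2 0.44 ± 0.12, adjusted p = 0.0191) and 1.36-fold with IL-4 (0.45 ± 0.12, adjusted p = 0.0159). The first was lost without control replicates 2 or 3 or 400 µM replicate 2 (0.0709 to 0.088), and the second without control replicates 2 or 3 or IL-4 replicate 1 (0.0664 to 0.0868).

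Xbp1, the transcription factor that IRE1 activates by splicing, stood at 203, 235 and 210 CPM in controls, 241, 232 and 245 CPM at 200 µM, 215, 229 and 230 CPM at 400 µM, 196, 233 and 213 CPM with IL-4 and 174, 187 and 97.9 CPM with IFN-γ. The IFN-γ libraries were below all controls, and the other groups overlapped with them. It fell by 0.50 ± 0.18 on the log2 scale with IFN-γ (adjusted p = 0.0363); without IFN-γ replicate 3 the difference was -0.26 (adjusted p = 0.0543), and the call was also lost without any 1 control (0.0571 to 0.107, range over alternatives 0.0132 to 0.138). Gene counts do not tell the spliced from the unspliced form. Canx, the membrane-bound partner of calreticulin, and Dnajc3 (p58IPK), a co-chaperone of BiP, fell with IFN-γ by 0.44 ± 0.15 (adjusted p = 0.0282) and 0.40 ± 0.14 (adjusted p = 0.036); both calls were lost without control replicates 1 or 3 or IFN-γ replicates 2 or 3 (Canx 0.0587 to 0.0914, Dnajc3 0.0814 to 0.134). The lectin chaperone Calr, Hsp90b1, Dnajb11 and Manf, a secreted ER factor, were not called against control in any group.

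No member differed detectably between the 2 heme-albumin doses. Between them, edgeR's test called 0 members and 0 of all 11883 genes (0%), with 1 member higher and 1 lower at 400 µM at an unadjusted p under the threshold, and DESeq2 called 0 members. The median log2 difference, 400 minus 200 µM, was 0.28 over the integrated stress genes and -0.11 over the unfolded protein genes, against 0.00 over all genes. A missing call does not show that the doses acted alike.

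Against IL-4, heme-albumin at 400 µM was lower for 17 members and higher for 1, Edem1, where 40.2% of all genes tested were called, 19.7% lower and 20.5% higher. The 17 were 7 integrated stress genes and 10 unfolded protein genes. The largest gaps that held under all 15 alternatives were those of Ddit3 and Herpud1 given above, Pdia4 (log2 -1.58 ± 0.28, adjusted p = 0.000578) and Sdf2l1 (-1.20 ± 0.26, 0.00249). Phgdh was lower by log2 -2.23 ± 0.74 (adjusted p = 0.0272), lost without 400 µM replicates 1 or 3 or IL-4 replicates 1 or 2 (0.0531 to 0.0985). With the replicate block, Atf4 (log2 -0.33, adjusted p = 0.0676 without the block and 0.0371 with it) and Hsp90b1 (-0.61, 0.0598 and 0.0373) were lower too. The count of integrated stress genes was 2 without 400 µM replicate 3 and 4 without 400 µM replicate 1, IL-4 replicate 1 or IL-4 replicate 2.

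Against IFN-γ, 400 µM heme-albumin was lower for 5 integrated stress genes (Wars, Ddit3, Sesn2, Aars and Trib3) and higher for 2 unfolded protein genes, Dnajb9 (0.52 ± 0.12, adjusted p = 0.00396) and Xbp1 (0.55 ± 0.18, 0.0224), where 42.9% of all genes were called, 22.3% lower and 20.6% higher. The integrated stress count was 8 without 400 µM replicate 2 and 9 without IFN-γ replicate 3, and the unfolded protein count 1 without 400 µM replicates 2 or 3 and 4 without IFN-γ replicate 1. Wars was lower by log2 -2.57 ± 0.13 (adjusted p = 4.91e-09). Trib3 (log2 -1.59 ± 0.60, adjusted p = 0.0457) lost its call without 400 µM replicates 1 or 3 or IFN-γ replicates 1 or 2 (0.0629 to 0.159), and Xbp1 without 400 µM replicates 2 or 3 (0.0503 and 0.058).

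Between the cytokines, the integrated stress genes went both ways: Atf5 (log2 1.22 ± 0.36, adjusted p = 0.0123) and Shmt2 (0.95 ± 0.34, 0.0307) were higher with IL-4, and Wars (-2.10 ± 0.13, 1.64e-08), Ddit3, Sesn2 (-0.97 ± 0.18, 0.000475) and Mthfd2 (-0.67 ± 0.23, 0.0262) were higher with IFN-γ. Shmt2 was lost without any 1 IL-4 library (0.0554 to 0.0704) and Mthfd2 without any 1 IL-4 library or IFN-γ replicates 1 or 2 (0.0579 to 0.0929). Phgdh differed by log2 1.63 and was not called (adjusted p = 0.069), but was with the replicate block (0.0278).

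Replicate 2 of both heme-albumin groups carried the higher integrated stress levels and the lower unfolded protein levels of its group. At 400 µM the median over the integrated stress genes, as log2 CPM minus the control mean, was -0.16, 0.42 and -0.39 in replicates 1 to 3, and over the unfolded protein genes -0.08, -0.47 and -0.08. At 200 µM the same medians were -0.35, -0.10 and -0.48, and 0.09, -0.39 and -0.01. Libraries of 1 replicate number share a date in their column names; with IL-4 and IFN-γ, replicate 2 stood at 0.37 and 0.71 for the integrated stress genes. The date cannot be told apart from the replicate number, which was fitted as a block in an alternative. The part of the date in these levels was not tested. Without replicate 2 of both heme-albumin groups, a setting chosen after seeing the data, the calls at 400 µM were 1 integrated stress gene and 1 unfolded protein gene, both lower. Of all genes, 19% were called at 400 µM in that setting. Without 400 µM replicate 2 and IFN-γ replicate 3 together, IFN-γ raised 13 integrated stress genes and lowered 0, and 400 µM heme-albumin lowered 4 and raised 1. There, 43.7% of all genes were called with IFN-γ and 27.2% at 400 µM.

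Upstream of the members, 1 of the 4 eIF2 kinase genes, that of PKR, was called with heme-albumin. Eif2ak1 (HRI) stood at 73.5 to 76.9 CPM in controls and at 74.4 to 82.8 CPM in the 6 heme-albumin libraries, with log2 differences of 0.11 ± 0.10 at 200 µM (adjusted p = 0.462) and 0.03 ± 0.10 at 400 µM (0.836). Eif2ak2 (PKR), the kinase of double-stranded RNA and an interferon-induced gene, fell by 1.28 ± 0.15 at 200 µM (adjusted p = 4.66e-05), by 0.81 ± 0.15 at 400 µM (0.00132) and by 1.07 ± 0.15 with IL-4 (0.000118), each under all 15 alternatives. With IFN-γ, Eif2ak2 rose by 0.39 ± 0.14 (adjusted p = 0.043) and Eif2ak1 by 0.26 ± 0.10 (0.0429); the first was lost without any 1 control or IFN-γ replicates 1 or 2 (0.0558 to 0.191) and the second without any 1 control or IFN-γ replicate 3 (0.0883 to 0.216). Eif2ak3 (PERK) fell with IFN-γ (log2 -0.46 ± 0.13, adjusted p = 0.00935) and Eif2ak4 (GCN2), the sensor of uncharged tRNA, was not called in any group. Of the unfolded protein sensors, Ern1 (IRE1) rose with IFN-γ (0.88 ± 0.13, adjusted p = 0.000117), and Atf6 rose at 400 µM (0.42 ± 0.08, 0.00212) and with IFN-γ (0.33 ± 0.08, 0.00558) and fell with IL-4 (-0.46 ± 0.08, 0.000981). Of the whole list of 15 sensors and eIF2 genes, 1 rose and 2 fell at 400 µM, and 2 rose and 1 fell at 200 µM. IL-4 raised 1 and lowered 1 of them, and IFN-γ raised 4 and lowered 3. The shares called were 20%, 20%, 13.3% and 46.7%, beside 25.4%, 23.4%, 26.8% and 43.7% of all genes. Of the list of 8 genes of the unfolded protein sensors, 1 was called at 400 µM and 2 at 200 µM, all higher, 1 with IL-4, which was Atf6, and 6 with IFN-γ, of which 4 rose and 2 fell.

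Other known ATF4 targets, 26 tested of 30 listed, were counted in the same way: with heme-albumin, 6 rose and 1 fell at each dose, 26.9% beside 25.4% of all genes at 400 µM and 23.4% at 200 µM. The shares called with IL-4 and IFN-γ were 11.5% and 23.1%, beside 26.8% and 43.7% of all genes. The cystine carrier Slc7a11 rose by log2 5.89 ± 1.06 at 400 µM (adjusted p = 0.00122) and 4.98 ± 1.02 at 200 µM (0.00334), its partner chain Slc3a2 by 1.53 ± 0.31 (0.0029) and 1.08 ± 0.31 (0.0228), and the glycine carrier Slc6a9 by 4.66 ± 0.61 (0.000113) and 4.33 ± 0.61 (0.000209). Slc7a11 stood at 6.78, 2.90 and 4.84 CPM in controls, 64.8, 285 and 108 CPM at 200 µM and 155, 535 and 170 CPM at 400 µM, with no overlap, replicate 2 being highest in each. Slc3a2 at 200 µM was lost without any 1 control or 200 µM replicate 2 (0.0607 to 0.128). Slc7a11 and Slc3a2 are also known as targets of NRF2, which answers to oxidative stress. Nupr1 fell by 1.36 ± 0.17 at 400 µM (adjusted p = 7.21e-05) and Cebpb rose by 1.44 ± 0.32 at 200 µM (0.00544). With IFN-γ 5 rose and 1 fell, among them Cth (2.40 ± 0.55, adjusted p = 0.0031), Cebpb (1.76 ± 0.32, 7e-04) and Nupr1 (1.37 ± 0.16, 1.44e-05); Slc7a11 (2.72 ± 0.97, 0.0357) rested on IFN-γ replicate 3, which stood at 77.0 CPM beside 16.4 and 3.03 CPM, and was lost without it (0.387), without any 1 control (0.067 to 0.115) and with the replicate block (0.0665). With IL-4 2 rose, Gpt2 (1.32 ± 0.25, 0.00145) and Gdf15 (1.38 ± 0.46, 0.0407, lost without any 1 control or IL-4 replicates 1 or 2, 0.0846 to 0.134), and Ndrg1 fell (-1.14 ± 0.20, 0.000707).

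Of 30 other unfolded protein genes, all tested, by edgeR's test 8 rose and 0 fell at 400 µM, 9 rose and 0 fell at 200 µM, and IL-4 raised 8 and lowered 0. IFN-γ raised 3 and lowered 6. The shares called either way, 26.7% at 400 µM, 30% at 200 µM, 26.7% with IL-4 and 30% with IFN-γ, stand beside 25.4%, 23.4%, 26.8% and 43.7% of all genes. By direction, 14.7% of all genes were called higher at 400 µM, 14% at 200 µM and 14.9% with IL-4. With IFN-γ, 24.1% of all genes were called higher and 19.5% lower. At an unadjusted p under 0.05, 1 was lower at 400 µM and 0 were at 200 µM or with IL-4, and DESeq2 called 0 lower in these 3 groups. Edem2, a mannosidase-like protein of ERAD, rose by log2 1.19 ± 0.21 at 400 µM (adjusted p = 0.00109) and 1.07 ± 0.21 at 200 µM (0.00253). Wfs1, an ER membrane protein, rose by 3.15 ± 0.33 with IL-4 (adjusted p = 1.39e-05), from 3.99 to 6.23 CPM in controls to 36.7 to 67.1 CPM. Sec24d, a coat protein of vesicles that leave the ER, rose by 0.88 ± 0.13 at 400 µM (adjusted p = 0.000312) and 0.93 ± 0.13 at 200 µM (0.000215), and Erp44, which retains proteins in the early secretory pathway, by 0.37 ± 0.08 at each dose (0.0058 and 0.00611), all under all 15 alternatives. Between the cytokines, 15 of the 30 were higher with IL-4 and 2 with IFN-γ, 56.7% beside 50.6% of all genes.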

How the data were processed

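RNA of 15 macrophage cultures was measured with a stranded TruSeq kit, per the labels' protocols. The authors deposited raw counts, not normalized, in 1 table. The submitters' processing notes name STAR 2.7.0e, SAMtools 1.9, featureCounts and GRCm38.p5; the sources used here give neither the annotation nor the strand setting, and overlapping genes (Atf5, Ddit3, Aars, Hsp90b1, Syvn1, Manf and others) are uncertain. Of 25700 identifiers, 25587 had a symbol in GENCODE M21.

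Genes were filtered with filterByExpr (11883 left), scaled by TMM (factors 0.886 to 1.12) and fitted together by edgeR's quasi-likelihood method, 1 coefficient a group (edgeR 4.0.16, R 4.3.3), with Benjamini-Hochberg adjustment per comparison and a threshold of 0.05. SE is the log2 fold change divided by the square root of F. The test was checked on simulated counts, drawn without a replicate effect or outlying libraries, so the check does not cover such libraries. CPM were scaled to the counts of tested genes. The members and lists were chosen with earlier results of these data known. Values per library are given for members called with an absolute log2 fold change of at least 1 against control and for Atf4, Ddit3, Atf3, Xbp1 and Hspa5; Asns, Psat1, Shmt2, Slc7a5, Syvn1, Edem1 and Slc7a11 were added after their values were seen. Non-members were named from those called against control with a change of at least 1, at most 6 a list, with the sensors always. Not every such gene was named. Of the other ATF4 targets, 5 had such a change with IFN-γ. Of the other unfolded protein genes, 2 had it with IL-4 and 1 with IFN-γ. Slc3a2 with its partner and the genes of smaller change were named after their values were seen.

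Columns carry 3 dates, 1 per replicate number, of unstated meaning, and the numbers were taken to pair the samples on that ground. The main fit left this pairing out, and only the replicate block used it. Deviations from group means correlated at a median of 0.13 in 30 pairs with the same number (-0.15 to 0.45) and -0.06 in 60 others. Alternatives were DESeq2 1.42.0, 2 other scalings, no filter, a filter of 5 CPM, only the 6 libraries compared, the replicate block, leaving out each library, leaving out 400 µM replicate 2 with IFN-γ replicate 3, and, chosen after seeing the data, leaving out replicate 2 of both heme-albumin groups.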

Additional observations from a re-analysis of the deposited data

How the results depend on the processing

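Over all members and comparisons, 81 differences were called; the replicate block lost 0 and gained 9, those printed beside their results and, also, Slc7a5 at 200 µM and with IFN-γ (adjusted p = 0.05 and 0.0459) and Atf4 and Hsp90b1 at 400 µM against IL-4 (0.0371 and 0.0373), and it changed no other call. With only the 6 libraries compared, integrated stress and unfolded protein calls were 4 and 6 at 400 µM, 11 and 5 at 200 µM and 13 and 13 with IL-4, against 2 and 3, 2 and 3, and 7 and 5 with all 15, while unfolded protein calls fell from 6 to 2 with IFN-γ and from 2 to 1 for 400 µM against IFN-γ. The share of all genes called moved too, to 27.3% at 400 µM, 39.4% at 200 µM, 45% with IL-4, 30.6% with IFN-γ and 23.9% for 400 µM against IFN-γ. Without 400 µM replicate 2 and IFN-γ replicate 3 together, integrated stress calls were 5 at 400 µM, 8 at 200 µM, 13 with IFN-γ, 14 between the cytokines, 13 for 400 µM against IL-4 and 15 against IFN-γ, and unfolded protein calls were 5 at 200 µM and 12 with IL-4. In this setting the share of all genes called was 27.2% at 400 µM, 36.9% at 200 µM, 38.2% with IL-4 and 43.7% with IFN-γ. It was 52.8% between the cytokines, 40.4% for 400 µM against IL-4 and 39.6% against IFN-γ. This setting also turned Asns (-0.94), Psat1 (-0.82) and, for 400 µM against IL-4, the ATF4 target Slc1a4 (-1.46, from 0.23). Without replicate 2 of both heme-albumin groups, integrated stress calls were 1 at 400 µM, 11 with IFN-γ and 8 for 400 µM against IFN-γ, and unfolded protein calls were 1 at 400 µM, 1 at 200 µM and 1 for 400 µM against IFN-γ. Of all genes, 19% were then called at 400 µM, 17.1% at 200 µM, 46.2% with IFN-γ and 38.8% for 400 µM against IFN-γ. With upper-quartile factors, unfolded protein calls were 11 with IFN-γ and 4 for 400 µM against IFN-γ, where 44.3% and 43.6% of all genes were called. This scaling moved the median of all genes from 0.05 to -0.06 with IFN-γ and from -0.01 to 0.11 for 400 µM against IFN-γ. The 5 CPM filter left 1 integrated stress call at each dose, since it removed Vldlr. Leaving out 1 library at a time gave, for integrated stress and unfolded protein calls, 0 to 2 and 1 to 2 at 400 µM, 0 to 2 and 0 to 2 at 200 µM, 3 to 5 and 2 to 5 with IL-4, 5 to 10 and 2 to 11 with IFN-γ (11 without IFN-γ replicate 1), 2 to 8 and 9 to 11 for 400 µM against IL-4, 4 to 9 and 1 to 4 for 400 µM against IFN-γ, and 4 to 8 and 12 to 15 between the cytokines. Of all genes, the fits without 1 library called 17.9% to 25% at 400 µM, 13.9% to 18.4% at 200 µM and 19.1% to 20.7% with IL-4. They called 33.3% to 46.6% with IFN-γ, 32.5% to 40.5% for 400 µM against IL-4 and 35.3% to 46.2% against IFN-γ. Between the cytokines they called 43.2% to 52.1%. Where no construction shows it, the cause was not tested. Depth limits Vldlr most, at 4 to 49 counts a library.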
